A study of Mus musculus with 24 samples.

Results

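Wild-type eIF2α (S/S) mouse lung adenocarcinoma cells served as control in both of the study's knockdown experiments, once after a control siRNA (siControl) and once after a scramble shRNA. The 2 control groups, S/S siControl and S/S shControl, are set side by side here over 4 libraries each. Genes were selected on their levels in these 8 of 24 libraries, in counts per 1e6 counts (CPM). A gene was taken when it reached 10 CPM or more in all 4 libraries of a group and 0.5 CPM or less in all 4 of the other. Of 36720 gene symbols that the count tables share, 77 met these limits. S/S siControl alone had 61 of them, and S/S shControl alone had 16. Lineage regulators, with Nkx2-1 and Cdkn2a foremost, were added whatever their level.

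The study sorted tumour cells that carried GFP and lacked CD45 from mouse lung adenocarcinoma and sequenced their RNA in culture, with 6 groups of 4 libraries. The table of 16 siRNA libraries holds A/A siChchd10, A/A siControl, S/S siChchd10 and S/S siControl, and the table of 8 shRNA libraries holds S/S shAtf4 and S/S shControl. A/A cells carry eIF2α with alanine in place of the serine that stress kinases phosphorylate, although the genotype entry of A/A siControl reads WT, as it does for the S/S control groups. Knockdown of Chchd10, a mitochondrial protein, was set against siControl, and knockdown of Atf4, the transcription factor of the integrated stress response, against the scramble shRNA delivered in a pLKO vector. The labels do not say whether both S/S control groups came from the same tumour or line. The count table, the culture and the kind of control RNA therefore cannot be told apart, and no test was made between S/S siControl and S/S shControl. All differences between them are descriptions of the values by which the genes were chosen.

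NKX2-1 is the homeodomain factor that holds lung epithelium, and much of lung adenocarcinoma, in a pulmonary state. When it is lost from mouse lung tumours, HNF4A and FOXA factors are known to drive genes of stomach, gut and liver. HNF4A is a nuclear receptor that maintains hepatocyte and enterocyte programmes, and albumin, alpha-fetoprotein and fibrinogen are classical products of the liver. Cdkn2a encodes the cell cycle inhibitor INK4A and the p53 activator ARF, and its neighbour Cdkn2b encodes the inhibitor INK4B. This pair is often silenced or deleted in tumours and in cultured cells.

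Library totals in units of 1e6 counts were 42.9 to 53.03 in S/S siControl and 17.5 to 70.9 in S/S shControl, within 14.1 to 75.4 over the series. Leukocyte markers summed to 5.18 to 6.56 CPM in S/S siControl and 6.41 to 9.03 CPM in S/S shControl, and 20 of 24 of them stood at 0.5 CPM or less in each group. Of 19 fibroblast markers, 12 stood at 0.5 CPM or less in S/S siControl and 15 in S/S shControl. Their sums were 335 to 361 CPM in S/S siControl and 233 to 495 CPM in S/S shControl, with Fbln1 and Npnt at 10 CPM or more in both and Col1a1 so in S/S shControl. Endothelial markers summed to 25.7 to 29.3 CPM in S/S siControl and 37.2 to 49.2 CPM in S/S shControl, with Flt1 the only one of 16 at 10 CPM or more in either group. Interferon genes summed to 706 to 811 CPM in S/S siControl. In S/S shControl they summed to 4150, 3764, 2610 and 623 CPM, the lowest in library 4. The part of these sums in the differences below was not tested. In bulk RNA, fewer cells of a kind and less RNA per cell cannot be told apart.

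Nkx2-1 was the clearest lineage regulator among the 61 genes of S/S siControl. Its levels in the 4 S/S siControl libraries were 36.5, 37.5, 38.2 and 37.1 CPM, and none of the 4 S/S shControl libraries held a single count. Against a floor of 3 counts over the S/S shControl group, its level in S/S siControl was at least 2230-fold higher, a bound that covers counting error only. Nkx2-1 lies on chromosome 12 from 56531935 to 56536908 (GRCm38.p6, the assembly that mm10 names). It also had no count in the 4 S/S shAtf4 libraries, which the choice of genes did not use. The Nkx2-1 level was 129 ± 4.19 CPM in A/A siChchd10, 116 ± 3.33 CPM in A/A siControl and 34.98 ± 3.59 CPM in S/S siChchd10 (SD, n = 4 each). Every siRNA library thus held Nkx2-1 RNA and no shRNA library did.

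**Figure D1:**
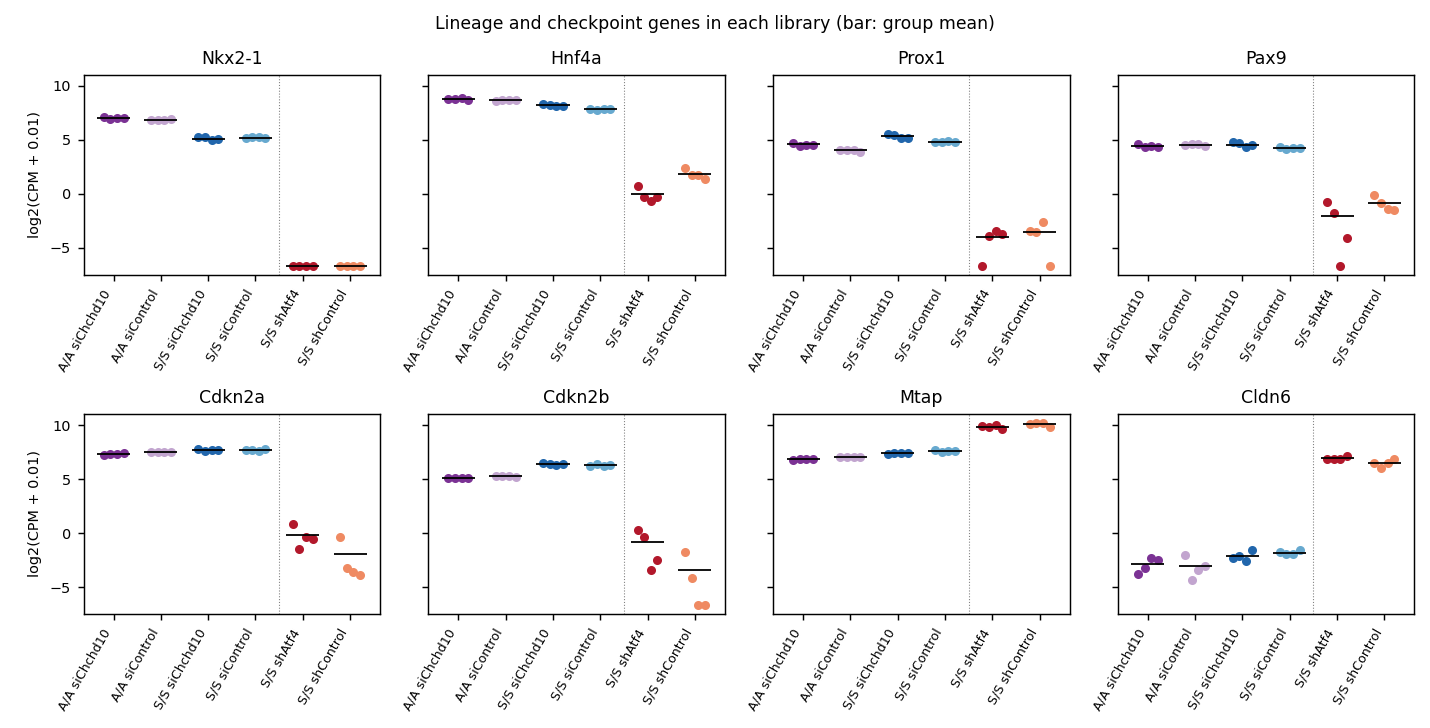
Levels of 8 genes in each of 24 libraries, as log2(CPM + 0.01), with a bar at each group's mean and a dotted line between the siRNA table (left) and the shRNA table (right). Nkx2-1 has no count in any shRNA library, Cdkn2a and Cdkn2b lie far higher in the siRNA libraries, and Mtap and Cldn6 lie higher in the shRNA libraries.

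Of 72 lineage regulators in the tables, 45 averaged 1 CPM or more over the 8 control libraries. For 19 of them every S/S siControl library lay above every S/S shControl library, for 14 the order was the other way, and for 12 the groups overlapped. Over all 13354 genes at that level, S/S siControl lay above without overlap for 29.6% and S/S shControl for 25.1%. Differences of at least 4-fold without overlap were found for 8 regulators higher in S/S siControl and 2 higher in S/S shControl, where all genes gave 4.12% and 4.45%. The median difference of the 45, S/S siControl minus S/S shControl on the log2(CPM + 0.5) scale, was 0.12, beside 0.03 over all genes. The median regulator was thus hardly shifted. The 19 of 45 above in S/S siControl, and the 8 of 45 so by at least 4-fold, were larger shares than those over all genes. The list was chosen with earlier results of these data known, so nothing more is read from these counts.

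The factors with the largest differences included regulators of liver and foregut. Hnf4a measured 239, 216, 238 and 230.2 CPM in S/S siControl, against 5.40, 3.36, 3.46 and 2.51 CPM in S/S shControl. It missed the limits for absence because S/S shControl still held a low level. The gene was thus far higher in S/S siControl, with no overlap. Prox1, a homeobox factor of hepatocytes and lymphatic endothelium, measured 28.2, 27.6, 29.3 and 27.4 CPM in S/S siControl, against 0.0846, 0.0782, 0.150 and 0 CPM in S/S shControl. Among the remaining regulators with at least 4-fold differences, named after their values were seen, Pax9, a foregut factor, averaged 19.2 ± 0.899 CPM in S/S siControl and 0.549 ± 0.277 CPM in S/S shControl (SD, n = 4 each). Foxj1, the factor of motile cilia, averaged 13.5 ± 1.75 CPM in S/S siControl and 0.669 ± 0.197 CPM in S/S shControl. Nr5a2, a nuclear receptor of liver and pancreas, averaged 8.68 ± 0.341 CPM in S/S siControl and 0.0505 ± 0.0484 CPM in S/S shControl. Id2, an inhibitor of basic helix-loop-helix factors, averaged 309.5 ± 20.7 CPM in S/S siControl and 65.9 ± 9.34 CPM in S/S shControl.

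Other regulators were higher in S/S shControl. Grhl2, a factor of epithelial junction genes, measured 1.77, 1.45, 1.501 and 1.35 CPM in S/S siControl, against 22.2, 19.96, 18.3 and 17.3 CPM in S/S shControl. The groups were separated by more than their spread. Snai1 and Zeb2, repressors of E-cadherin in epithelial-mesenchymal transition, were higher in S/S shControl as well. Snai1 averaged 6.94 ± 0.988 CPM in S/S siControl and 21.4 ± 4.64 CPM in S/S shControl (SD, n = 4 each). Zeb2 averaged 30.1 ± 2.07 CPM in S/S siControl and 71.5 ± 9.78 CPM in S/S shControl. Sox11, a factor of embryonic progenitors, averaged 39.5 ± 2.37 CPM in S/S siControl and 98.0 ± 8.05 CPM in S/S shControl. Runx1, a factor of blood and epithelial progenitors, averaged 40.5 ± 4.24 CPM in S/S siControl and 86.8 ± 3.84 CPM in S/S shControl. Other mesenchymal factors, named after their values were seen, went either way. Snai2 shared this order without overlap, at 4.54 ± 0.418 CPM in S/S siControl and 16.9 ± 6.997 CPM in S/S shControl. Zeb1, Twist2 and Prrx1 did not share it. Zeb1 averaged 39.9 ± 1.33 CPM in S/S siControl and 28.5 ± 5.39 CPM in S/S shControl, and Twist2 2.01 ± 0.391 CPM in S/S siControl and 0.371 ± 0.0577 CPM in S/S shControl, both without overlap, while Prrx1 overlapped.

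Some regulators of endoderm overlapped between the groups. Sox9 averaged 41.0 ± 3.76 CPM in S/S siControl and 41.3 ± 1.42 CPM in S/S shControl, and Cdx2, the intestinal master factor, 28.7 ± 2.66 CPM in S/S siControl and 26.9 ± 5.999 CPM in S/S shControl (SD, n = 4 each). Klf5 averaged 55.2 ± 5.53 CPM in S/S siControl and 57.0 ± 8.87 CPM in S/S shControl. Foxa1, which opens chromatin at endodermal enhancers, averaged 57.1 ± 4.13 CPM in S/S siControl and 79.6 ± 26.6 CPM in S/S shControl, with overlap. These 4 were named after their values were seen.

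**Figure D2:**
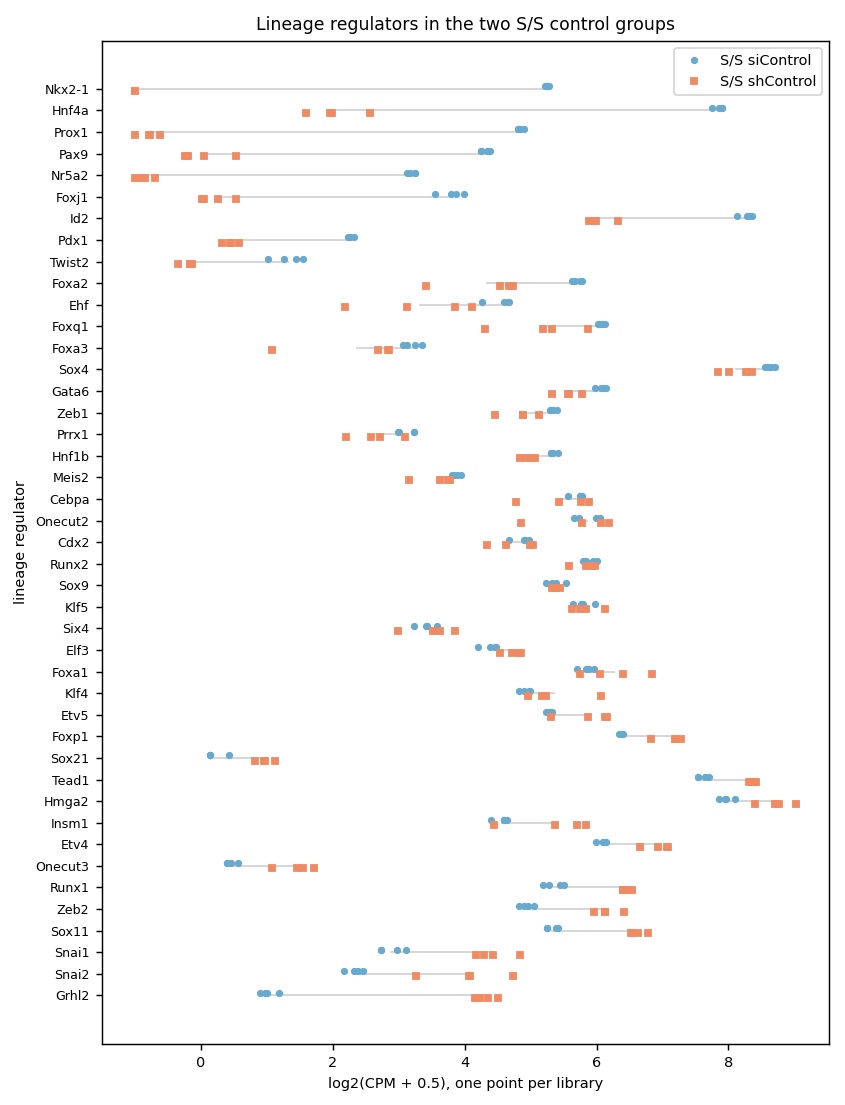
Each of 43 lineage regulators averaging 1 CPM or more, as log2(CPM + 0.5), with a point per library for S/S siControl (circles) and S/S shControl (squares), ordered by the difference of the means. Nkx2-1, Hnf4a and Prox1 stand at the top and Grhl2 at the bottom, and 12 regulators overlap between the groups.

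Cdkn2a differed more than any other gene among the 13354 at 1 CPM or more, with a log2 difference of 8.22. Its levels were 214, 203, 196 and 222 CPM in S/S siControl, against 0.775, 0.0938, 0.0751 and 0.0571 CPM in S/S shControl. Library 1 of S/S shControl stood above 0.5 CPM, so that Cdkn2a is not among the 61 genes, and it enters them when that library is left out. The adjacent Cdkn2b measured 75.4, 83.7, 74.4 and 81.4 CPM in S/S siControl, against 0.282, 0.0469, 0 and 0 CPM in S/S shControl. Cdkn2a lies on chromosome 4 from 89274473 to 89294619, and Cdkn2b from 89306289 to 89311032. Both inhibitors of the locus were therefore present in S/S siControl and nearly without reads in S/S shControl.

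Mtap, the methylthioadenosine phosphorylase gene on the other side of Cdkn2a from Cdkn2b, had the opposite order. It measured 204, 184, 195 and 199 CPM in S/S siControl, against 1123, 1170, 1189 and 891 CPM in S/S shControl. Klhl9, farther off on the same side, averaged 51.7 ± 1.72 CPM in S/S siControl and 59.1 ± 7.59 CPM in S/S shControl, with overlap (SD, n = 4 each). These neighbours thus kept their reads. Beyond Cdkn2b, Dmrta1 held 6, 10, 8 and 8 counts and Elavl2 14, 22, 18 and 15 counts in S/S siControl, against no count of either gene in any S/S shControl library. Both stood below 0.5 CPM in every library of the 2 control groups. Low levels were also seen in S/S shAtf4, where Cdkn2a measured 1.85, 0.342, 0.768 and 0.668 CPM and Cdkn2b 1.21, 0.799, 0.0853 and 0.167 CPM. In A/A cells Cdkn2a averaged 159 ± 6.73 CPM after siChchd10 and 188 ± 2.35 CPM after siControl. Dmrta1 held 0, 0, 2 and 0 counts in A/A siControl and no count in A/A siChchd10. Elavl2 held no count in A/A siControl and 0, 0, 0 and 3 counts in A/A siChchd10. Near absence of Dmrta1 and Elavl2 was thus not particular to the groups with low Cdkn2a.

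Over the 24 genes of the G1 checkpoint list, S/S siControl lay above without overlap for 9 and S/S shControl for 4, while 11 overlapped, where all genes gave 29.6% and 25.1%. Cdkn1a, the p53-induced inhibitor p21, averaged 29.9 ± 0.730 CPM in S/S siControl and 122 ± 23.3 CPM in S/S shControl, with no overlap (SD, n = 4 each). Trp53 itself, named after its values were seen, measured 10.9, 12.3, 13.3 and 9.59 CPM in S/S siControl, against 30.8, 17.5, 26.0 and 19.4 CPM in S/S shControl. Of 29 p53 target genes at 1 CPM or more, 17 lay above without overlap in S/S shControl and 2 in S/S siControl, with a median log2 difference of -0.53. Over all genes these shares were 25.1% and 29.6%, and the median was 0.03. The only 1 of these with at least a 4-fold difference was Eda2r, a death receptor gene, at 1.89 ± 0.297 CPM in S/S siControl and 16.9 ± 3.83 CPM in S/S shControl.

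The 61 genes of S/S siControl made up 0.652% of the 9359 genes at 10 CPM or more in all 4 of its libraries. Their summed level was 2012 to 2107 CPM in S/S siControl and 4.36 to 7.47 CPM in S/S shControl. Of the 61, 60 were protein coding and 1, Marcksl1-ps4, was a pseudogene whose reads may come from near-identical copies. Only Nkx2-1, Cacna1h, a T-type calcium channel, and Tmlhe, an enzyme of carnitine synthesis, had no count in any S/S shControl library. The level of Cacna1h was at least 2361-fold and that of Tmlhe at least 1358-fold higher in S/S siControl, on the same floor. Chromosome X carried 7 of the 61 (Col4a6, Vsig1, Tmlhe, Bhlhb9, Prrg1, Hs6st2 and Klhl13), or 11.5%, beside 2.95% of the 9359 genes. The genes were sorted by role after their values were seen, into 16 secreted or enzyme products of liver and gut, 11 channels, receptors and neural proteins, 8 transcription regulators, 8 genes of epithelial surface and cytoskeleton, 7 of matrix and adhesion, 5 of growth arrest and kinases, and 6 others.

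**Figure D3:**
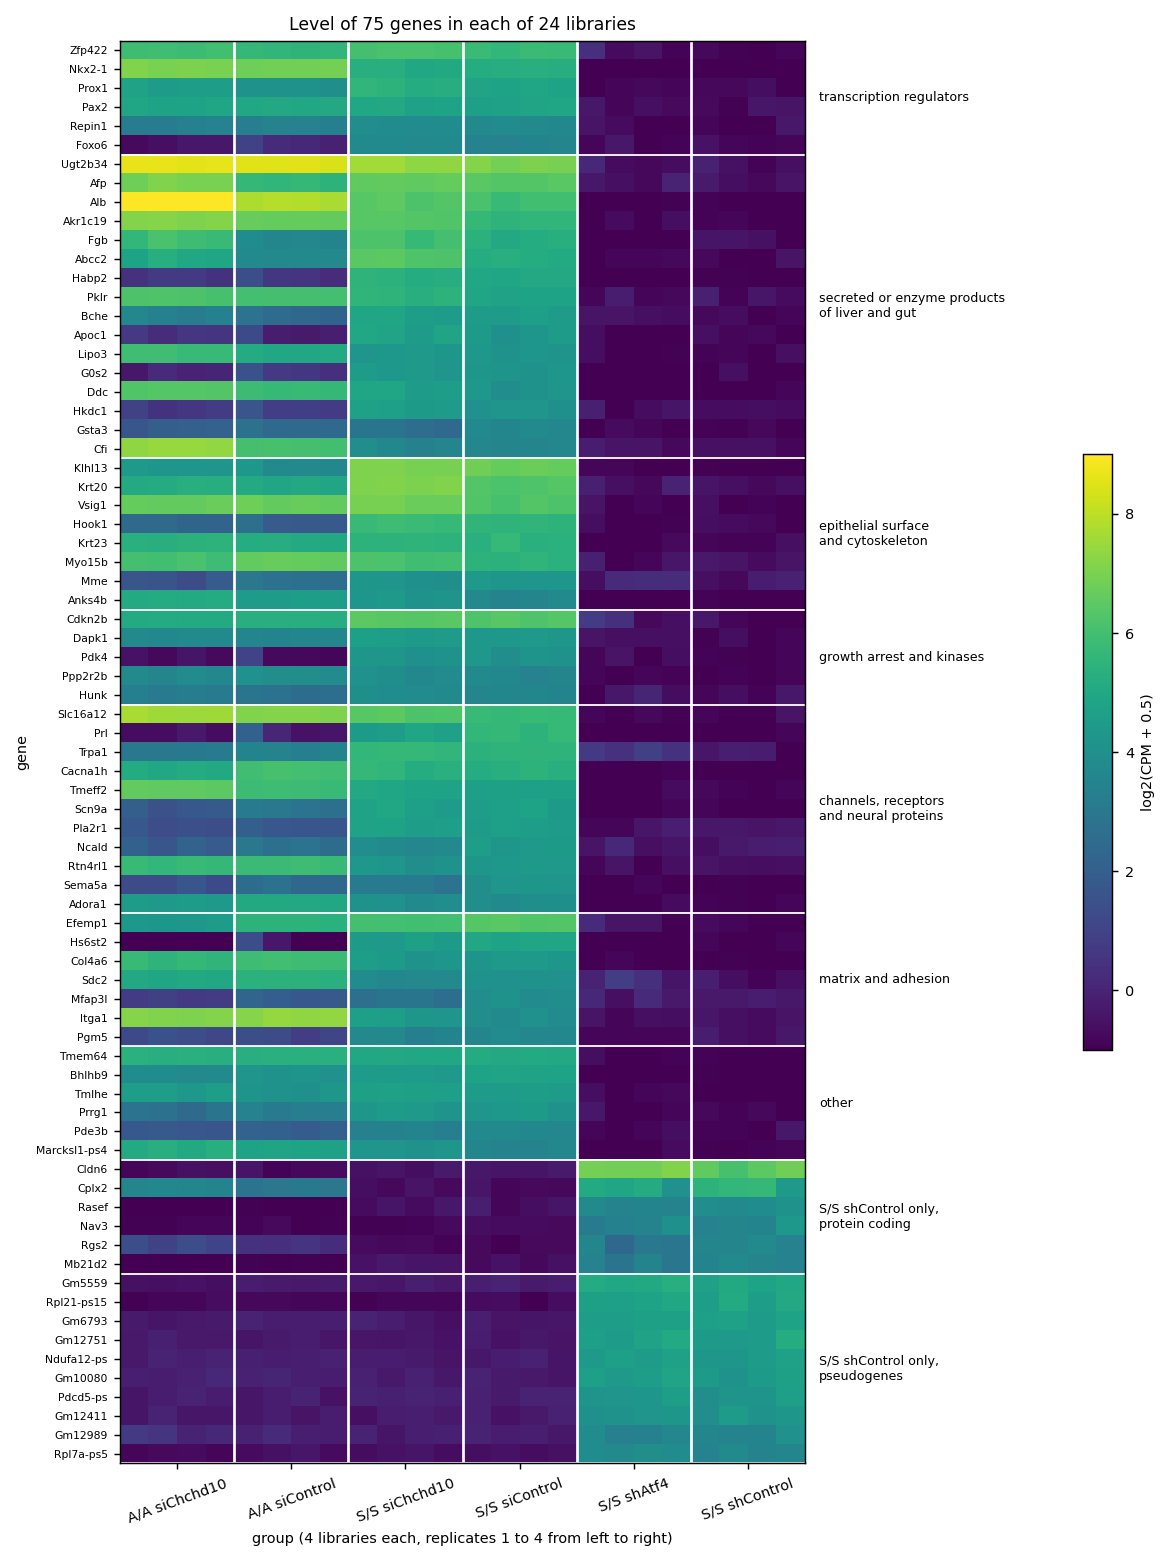
Levels of 75 of the 77 genes in 24 libraries, as log2(CPM + 0.5) from dark (low) to yellow (high), in rows by role and columns by group. The genes of S/S siControl are dark in both shRNA groups, the 16 genes of S/S shControl are dark in S/S siControl and S/S siChchd10, and a set of the 61 is also low in A/A cells.

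The role with most genes, 16 secreted or enzyme products of liver and gut, held plasma proteins, enzymes and transporters. Alb, which encodes serum albumin, measured 69.9, 53.5, 61.5 and 62.8 CPM in S/S siControl, against 0.0282, 0, 0 and 0 CPM in S/S shControl. Afp, the fetal counterpart alpha-fetoprotein, measured 87.4, 79.2, 78.8 and 86.6 CPM in S/S siControl, against 0.324, 0.141, 0.0751 and 0.229 CPM in S/S shControl. Fgb, the fibrinogen beta chain, measured 41.5, 32.6, 35.7 and 38.9 CPM in S/S siControl, against 0.240, 0.235, 0.188 and 0 CPM in S/S shControl. These were the only 3 of 40 liver-type genes on the list to meet the limits. Alb and Afp are neighbours on chromosome 5, 14112 bases apart with no coding gene between them. Ugt2b34, a glucuronosyltransferase of detoxification, measured 139.6, 121, 131 and 123 CPM in S/S siControl, against 0.437, 0.188, 0.0376 and 0.171 CPM in S/S shControl. Akr1c19, an aldo-keto reductase, averaged 47.4 ± 2.48 CPM in S/S siControl and 0.0223 ± 0.0258 CPM in S/S shControl (SD, n = 4 each). Abcc2, the canalicular exporter of conjugates, averaged 36.2 ± 1.26 CPM in S/S siControl and 0.0783 ± 0.108 CPM in S/S shControl. Ddc, the decarboxylase of dopamine and serotonin synthesis and the only 1 of 17 neuroendocrine genes to meet the limits, averaged 17.3 ± 2.19 CPM in S/S siControl and 0.0143 ± 0.0286 CPM in S/S shControl.

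Another role held 8 genes of epithelial surface and cytoskeleton. Krt20, a keratin of intestinal and gastric surface epithelium, measured 79.4, 71.9, 74.6 and 82.9 CPM in S/S siControl, against 0.240, 0.172, 0.0751 and 0.171 CPM in S/S shControl. Krt23, its neighbour 39820 bases away on chromosome 11, averaged 43.4 ± 5.56 CPM in S/S siControl and 0.0742 ± 0.0657 CPM in S/S shControl (SD, n = 4 each). Vsig1, a junction protein of gastric epithelium, measured 78.4, 68.5, 78.6 and 73.8 CPM in S/S siControl, against 0.169, 0, 0.0376 and 0 CPM in S/S shControl. As the limits require, each of these genes was read in every S/S siControl library at a level that no S/S shControl library approached. They were single entries of their lists, with 1 of 37 intestinal genes (Krt20), 1 of 25 gastric genes (Vsig1) and 2 of 21 keratins meeting the limits. Klhl13, an adaptor of a ubiquitin ligase, measured 114, 99.3, 108 and 99.8 CPM in S/S siControl, against 0.0141, 0, 0 and 0 CPM in S/S shControl. Hook1, a microtubule linker, averaged 45.2 ± 1.51 CPM in S/S siControl and 0.0849 ± 0.0654 CPM in S/S shControl.

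Several of the 61 genes belong to other tissues. Pax2, a kidney and neural factor, averaged 26.9 ± 2.02 CPM in S/S siControl and 0.151 ± 0.115 CPM in S/S shControl (SD, n = 4 each). Prl, the pituitary hormone prolactin, measured 48.2, 50.3, 44.1 and 51.5 CPM in S/S siControl, against 0, 0, 0 and 0.0571 CPM in S/S shControl. A kidney and neural factor and a pituitary hormone thus stood beside the endodermal genes. Trpa1, an irritant-sensing ion channel, averaged 44.2 ± 0.810 CPM in S/S siControl and 0.262 ± 0.185 CPM in S/S shControl. Slc16a12, a creatine transporter, averaged 52.0 ± 2.33 CPM in S/S siControl and 0.0712 ± 0.108 CPM in S/S shControl. Efemp1, the matrix protein fibulin-3, averaged 81.4 ± 3.73 CPM in S/S siControl and 0.0399 ± 0.0534 CPM in S/S shControl. Zfp422, a zinc finger protein, averaged 53.8 ± 3.74 CPM in S/S siControl and 0.0393 ± 0.0386 CPM in S/S shControl.

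No gene met the limits in the lists of alveolar type 2, alveolar type 1, transitional alveolar, airway, basal and squamous, mesenchymal, Hox, interferon, MHC class I, p53 target, Y-linked or stress response genes, or in those of leukocytes, fibroblasts and endothelial cells. No surfactant gene is therefore among the 77.

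The 16 genes of S/S shControl made up 0.18% of the 8876 genes at 10 CPM or more in all 4 of its libraries. Only 6 of them were protein coding. Cldn6, a claudin of embryonic epithelium and the only epithelial junction gene among the 77, measured 0.280, 0.245, 0.2501 and 0.332 CPM in S/S siControl, against 93.2, 67.5, 88.9 and 115 CPM in S/S shControl. Cplx2, a complexin of synaptic vesicle release, measured 0.257, 0.0566, 0.0962 and 0.0830 CPM in S/S siControl, against 44.0, 48.4, 50.3 and 20.6 CPM in S/S shControl. Rasef, a Rab family GTPase, averaged 0.214 ± 0.145 CPM in S/S siControl and 14.7 ± 1.49 CPM in S/S shControl (SD, n = 4 each). By the limits that chose them, these 3 were read throughout S/S shControl and in no S/S siControl library above 0.397 CPM. Nav3, a neuron navigator protein, averaged 0.118 ± 0.0155 CPM in S/S siControl and 12.9 ± 4.35 CPM in S/S shControl. Rgs2, a regulator of G protein signalling, averaged 0.0733 ± 0.0491 CPM in S/S siControl and 11.4 ± 1.15 CPM in S/S shControl. Mb21d2, a protein of the Mab21 family, averaged 0.141 ± 0.0655 CPM in S/S siControl and 11.3 ± 1.16 CPM in S/S shControl.

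The other 10 genes of S/S shControl, or 62.5%, were pseudogenes, beside 1.62% of the 8876 genes present there. All annotated pseudogenes together took 0.390 to 0.650% of counts in the 16 siRNA libraries and 1.27 to 1.43% in the 8 shRNA libraries, with no overlap. Rpl21-ps15 averaged 0.0933 ± 0.0625 CPM in S/S siControl and 28.2 ± 5.43 CPM in S/S shControl, while Rpl21, its ribosomal protein parent, averaged 737 ± 26.9 CPM in S/S siControl and 70.9 ± 14.0 CPM in S/S shControl (SD, n = 4 each). Rpl7a-ps5 averaged 0.167 ± 0.0356 CPM in S/S siControl and 11.3 ± 1.16 CPM in S/S shControl, and Rpl7a 999.8 ± 45.6 CPM in S/S siControl and 133 ± 6.43 CPM in S/S shControl. For these 2 families the copy and its parent moved in opposite directions between the tables. Ndufa12 averaged 50.3 ± 4.48 CPM in S/S siControl and 37.7 ± 5.64 CPM in S/S shControl, and Pdcd5 43.0 ± 1.01 CPM in S/S siControl and 35.2 ± 7.92 CPM in S/S shControl, parents of Ndufa12-ps and Pdcd5-ps. These pseudogenes share reads with near-identical copies. The split of reads between copies depends on the aligner and the counting program, neither of which the labels name. The levels of the 10, and of Rpl21 and Rpl7a, are therefore uncertain. Whether other coding genes of either control group share reads with similar copies was not tested. The pseudogenes and their parents were named after their values were seen.

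**Figure D4:**
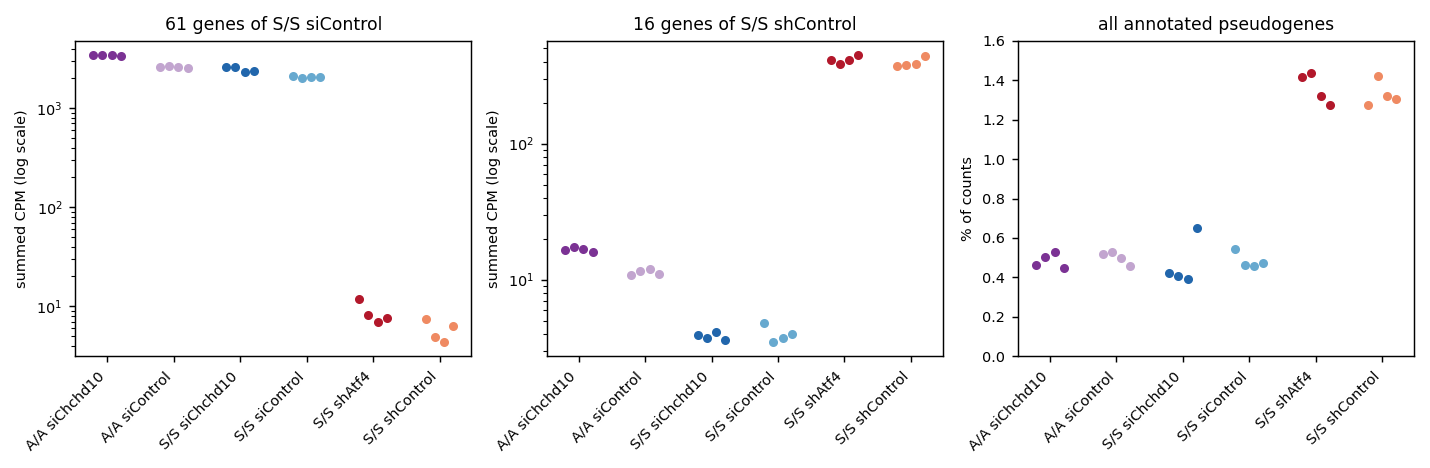
Summed level of the 61 genes (left, CPM, log axis), summed level of the 16 genes (middle, CPM, log axis) and share of counts on all annotated pseudogenes (right, %), with a point per library. The 61 genes sum to at least 2012 CPM in every siRNA library and at most 11.8 CPM in every shRNA library, and the pseudogene share does not overlap between the tables.

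The 77 genes were then followed in libraries that their choice did not use. S/S siChchd10 and S/S shAtf4 also hold S/S cells, each in the same table as a group that chose the genes. Like levels there are therefore a description. No share over all genes was taken for levels of 0.5 CPM or less, so the counts of such genes have no background. Of the 61 genes, 55 (90.2%) reached 10 CPM in all 4 S/S siChchd10 libraries, where 98.3% of the 9359 genes present in S/S siControl did, and the other 6 were Pgm5, Sema5a, Mfap3l, Pde3b, Cfi and Gsta3. In S/S shAtf4, 50 of the 61 stood at 0.5 CPM or less in all 4 libraries. The 11 that did not included Hunk, Ncald, Sdc2, Efemp1, Mfap3l, Zfp422, Ugt2b34, Cdkn2b, Mme and Trpa1. Both conditions held for 45 genes. The summed level of the 61 was 6.996 to 11.8 CPM in S/S shAtf4, beside 4.36 to 7.47 CPM in S/S shControl. Of the 16 genes, 12 (75.0%) reached 10 CPM in all 4 S/S shAtf4 libraries, where 98.0% of the 8876 genes present in S/S shControl did, and 15 stood at 0.5 CPM or less in all 4 S/S siChchd10 libraries.

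A/A cells, also in the siRNA table, shared much of the S/S siControl pattern but not all of it. Of the 61 genes, 38 (62.3%) reached 10 CPM in all 8 A/A libraries, where 93.5% of the 9359 genes present in S/S siControl did. In all, 31 genes were at 10 CPM or more in all 16 siRNA libraries and at 0.5 CPM or less in all 8 shRNA libraries. No share over all genes was taken for such pairs of limits. Hs6st2, Prl, Pdk4 and Foxo6 stood at 0.5 CPM or less in all 4 A/A siChchd10 libraries. Of the 16 genes of S/S shControl, 8 were at 10 CPM or more in all 8 shRNA libraries and at 0.5 CPM or less in all 16 siRNA libraries. Cldn6 and Rasef were the only protein-coding genes among them, and the others were pseudogenes, whose levels are uncertain. Cplx2 did not follow the table. It averaged 11.5 ± 0.566 CPM in A/A siChchd10 and 7.21 ± 0.497 CPM in A/A siControl, against 0.136 ± 0.0581 CPM in S/S siChchd10 and 0.123 ± 0.0905 CPM in S/S siControl (SD, n = 4 each). Rgs2 averaged 1.78 ± 0.368 CPM in A/A siChchd10 and 0.822 ± 0.109 CPM in A/A siControl, against 0.0807 ± 0.0285 CPM in S/S siChchd10 and 0.0733 ± 0.0491 CPM in S/S siControl.

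Whether the 61 genes differed between A/A and S/S cells was tested within the siRNA table with edgeR's quasi-likelihood test and Benjamini-Hochberg adjustment over all 18138 genes tested. The labels do not say how many tumours or lines stand for each genotype. Genotype and line therefore cannot be told apart, and the p-values measure the spread between these libraries only. The comparison after siChchd10 uses no library by which the genes were chosen. S/S siChchd10 nevertheless holds S/S cells of the same table, and 55 of the 61 genes reached 10 CPM in all 4 of its libraries. The S/S side was thus the side on which the genes were chosen to be high. The members' shares and falls are therefore a description here as well. All 61 passed the filter on low counts. Of the 61, 21 were higher and 36 (59.0%) lower in A/A siChchd10 than in S/S siChchd10 at an adjusted p under 0.05. Pax2, Myo15b, Krt23 and Fgb did not pass. Over all genes tested 34.7% were higher and 35.8% lower, and over the 9359 genes present in S/S siControl 38.6% and 40.4%. The members' share of higher genes lay near this background and their share of lower genes above it. Falls of at least 4-fold were more frequent, at 16 of 61, where 2.77% of the present genes fell so far. The median log2 fold change of the 61 was -0.56, beside -0.01 over the present genes.

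Nkx2-1 rose in A/A siChchd10, at 136, 126, 128 and 127 CPM, against 38.4, 37.6, 30.9 and 33.1 CPM in S/S siChchd10. The log2 fold change was 1.90 ± 0.05 (SE; edgeR, adjusted p = 1.93e-23). Alb rose further, at 704, 727, 763 and 700.4 CPM in A/A siChchd10, against 83.9, 90.6, 73.2 and 78.9 CPM in S/S siChchd10, with a log2 fold change of 3.16 ± 0.07 (edgeR, adjusted p = 2.55e-19). In both genes every A/A library lay above every S/S library. The largest rise was that of Cfi, the complement factor I protease, at 169.7 ± 5.09 CPM in A/A siChchd10 and 12.02 ± 2.05 CPM in S/S siChchd10 (SD, n = 4 each), a log2 fold change of 3.83. Itga1, a collagen-binding integrin chain, rose by 2.72 and Tmeff2, a transmembrane protein with follistatin domains, by 1.69 on the log2 scale.

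The largest falls left genes at or near 0 CPM. Hs6st2, a heparan sulfate sulfotransferase, had no count in any A/A siChchd10 library, against 21.5, 20.7, 24.9 and 21.6 CPM in S/S siChchd10, and was at least 1667-fold lower on a floor of 3 counts over the A/A siChchd10 group. Prl averaged 0.170 ± 0.0831 CPM in A/A siChchd10 and 25.0 ± 3.21 CPM in S/S siChchd10 (SD, n = 4 each). Pdk4, the kinase that inhibits pyruvate dehydrogenase, averaged 0.151 ± 0.0777 CPM in A/A siChchd10 and 17.7 ± 1.55 CPM in S/S siChchd10. On the log2 scale, Prl fell by 7.22, Pdk4 fell by 6.92, the forkhead gene Foxo6 fell by 5.88, and the plasma protease gene Habp2 fell by 5.355.

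The same genotypes were compared after siControl. These S/S siControl libraries chose the genes, so the counts are given as a description and support nothing. All 61 passed the threshold in edgeR, with 25 higher and 36 lower in A/A siControl. Over all genes tested 35.6% were higher and 34.7% lower, and over the present genes 37.2% and 42.2%. Falls of at least 4-fold numbered 15, where 2.45% of present genes fell so far. The median log2 fold change of the 61 was -0.79, beside -0.03 over the present genes. Nkx2-1 measured 112, 118, 115 and 119 CPM in A/A siControl, against the 36.5 to 38.2 CPM of S/S siControl, a log2 fold change of 1.61 ± 0.05 (edgeR, adjusted p = 1.07e-21). Itga1 rose by 3.46, Cfi by 2.50, Alb by 1.83 and Ddc by 1.599 on the log2 scale. Hs6st2 fell by 5.52, Prl fell by 5.30, Pdk4 fell by 5.251, Apoc1, an apolipoprotein gene, fell by 4.71, and Habp2 fell by 4.68. Library 1 of A/A siControl held more of Hs6st2, Prl, Pdk4 and Apoc1 than the other 3, and without it their log2 fold changes were -8.20, -7.17, -7.67 and -5.79.

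By role, the 16 secreted or enzyme products had 8 rises and 7 falls in A/A siChchd10 against S/S siChchd10, and 7 rises and 9 falls in A/A siControl against S/S siControl. Of the 8 epithelial surface genes, 1 rose and 5 fell in A/A siChchd10, and 3 rose and 5 fell in A/A siControl. Beside the 34.7 to 42.2% of genes called in each direction, nothing is read from these counts. Krt20 fell by 1.88 after siChchd10 and fell by 1.32 after siControl on the log2 scale, while Vsig1 fell by 0.17 after siChchd10 and rose by 0.41 after siControl. The groups of Vsig1 overlapped after siChchd10, and its call ended there without S/S siChchd10 library 2 (edgeR, adjusted p = 0.055), as the calls of Ppp2r2b and Tmlhe did without single libraries. Hnf4a, which is not among the 61, rose by 0.62 after siChchd10 and by 0.80 after siControl on the log2 scale. Prox1 fell by 0.76 after siChchd10 and fell by 0.79 after siControl. Cdkn2b fell by 1.29 after siChchd10 and fell by 1.05 after siControl, and Cdkn2a fell by 0.37 and fell by 0.18. Nkx2-1 and Hnf4a were higher in A/A cells, and Prox1 and both INK4 genes lower (all edgeR, adjusted p of 0.0057 or less). Nkx2-1, Prox1 and Cdkn2b were chosen for high levels in S/S siControl, and genotype and line cannot be told apart. These differences are therefore a description.

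**Figure D5:**
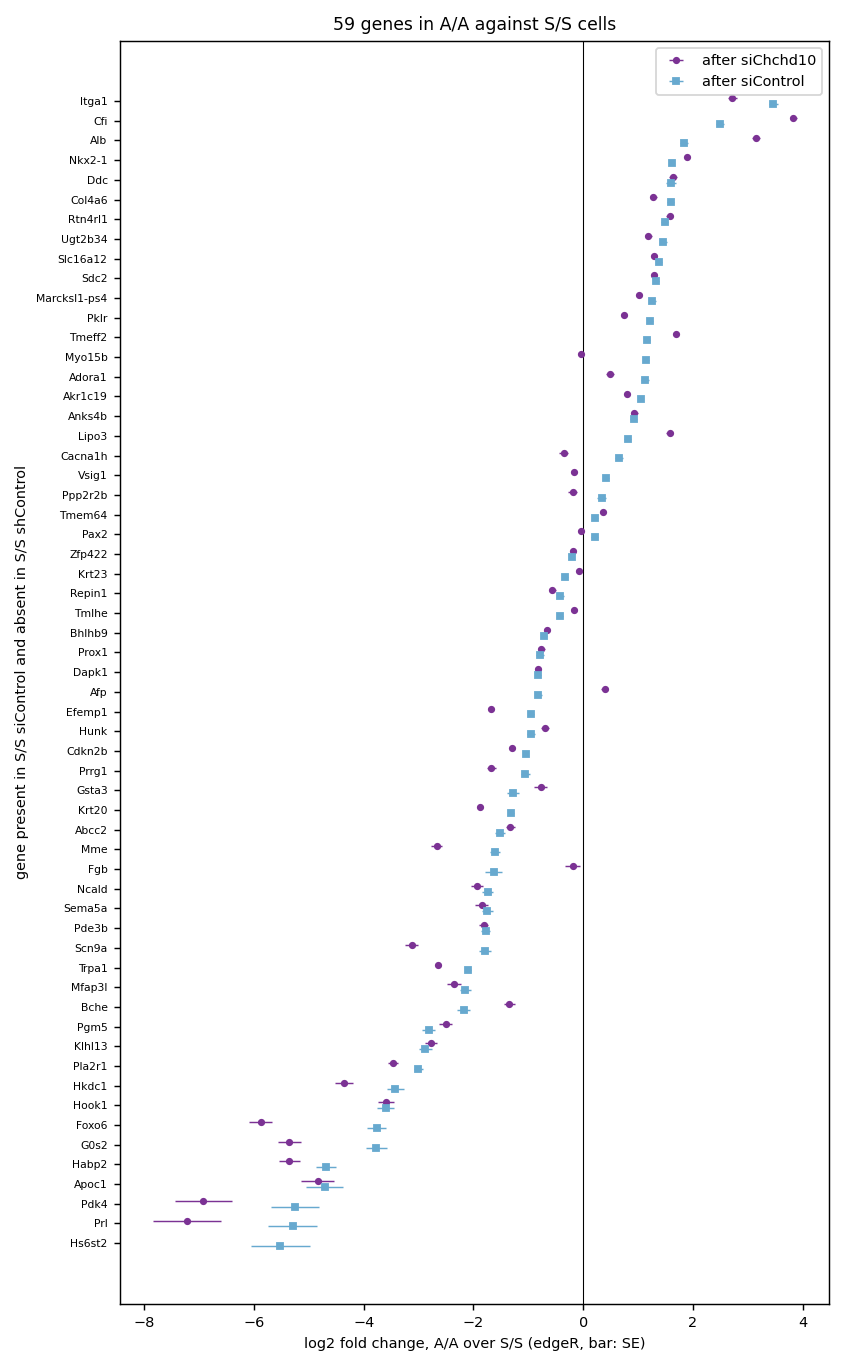
Log2 fold change of 59 of the 61 genes in A/A over S/S cells (edgeR, bars give SE), after siChchd10 (circles) and after siControl (squares), ordered by the values after siControl. Itga1, Cfi, Alb and Nkx2-1 lie to the right and Hs6st2, Prl, Pdk4 and Apoc1 to the left, and the siChchd10 point of Hs6st2 is left out because A/A siChchd10 had no count.

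The 61 genes were also compared after Chchd10 knockdown. Chchd10 itself was at 6.76, 5.39, 6.26 and 6.69 CPM in S/S siChchd10, against 40.1, 46.3, 38.6 and 44.8 CPM in S/S siControl. Of the 61, 28 were higher and 11 lower in S/S siChchd10 in edgeR, and 22 did not pass, with a median log2 fold change of 0.15 beside -0.01 over the present genes. Over all genes tested 15% were higher and 13% lower, and over the present genes 17% and 17.6%. The S/S siControl libraries also chose the genes, so nothing is read from the members' shares.

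Of the 16 products of liver and gut, 10 were higher and 1 lower, and of the 8 genes of epithelial surface and cytoskeleton, 5 were higher and 0 lower. Of the 5 genes of growth arrest and kinases, 4 were higher and 0 lower, and the roles were not tested against each other. Among the present genes 17% were higher and 17.6% lower. The roles were made after values were seen and S/S siControl chose the genes, so nothing is read from these counts. Abcc2 measured 85.6, 89.6, 75.7 and 73.1 CPM in S/S siChchd10, against 36.5, 37.6, 36.1 and 34.6 CPM in S/S siControl, a log2 fold change of 1.16 ± 0.08 (SE; edgeR, adjusted p = 3.31e-09). Fgb rose by 0.82, Krt20 by 0.80, Akr1c19 by 0.77 and the pseudogene Marcksl1-ps4 by 0.69 on the log2 scale. Hnf4a rose by 0.35. Mfap3l, a membrane protein of the microfibril family, fell by 1.236 and Sema5a, an axon guidance ligand, fell by 1.20. Gsta3, a glutathione transferase, fell by 1.06, Prl fell by 0.95 and Ncald, a neuronal calcium sensor, fell by 0.67. The fall of Prl did not pass (adjusted p of 0.054 to 0.092) in 7 of the 16 fits that left out 1 library. Nkx2-1 was 34.98 ± 3.59 CPM in S/S siChchd10 and 37.3 ± 0.717 CPM in S/S siControl (SD, n = 4 each), a difference of -0.09 ± 0.05 on the log2 scale that did not pass (edgeR, adjusted p = 0.17). The calls of 7 members in all (Afp, Cdkn2b, Habp2, Klhl13, Prl, Rtn4rl1 and Tmlhe) ended when a single library was left out.

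The 16 genes of S/S shControl were tested for Atf4 knockdown in the 8 shRNA libraries, with 14697 genes in the fit. They were chosen on the S/S shControl libraries that serve as baseline, so their calls are a description. Atf4 measured 301, 239.9, 317 and 215 CPM in S/S shAtf4, against 579, 839.6, 838 and 487 CPM in S/S shControl. Without the replicate number in the fit, none of the 16 passed the adjusted threshold in edgeR or in DESeq2. In these fits 3 in edgeR and 5 in DESeq2 had an unadjusted p under 0.05. Over all genes tested in this edgeR fit 0.15% were higher and 0.388% lower. With the replicate number as a block, 5 passed in edgeR. No share over all genes was taken for the blocked fit, so nothing is read from this count. There Cldn6 rose by 0.48 (edgeR, adjusted p = 0.000201) and Gm5559, a pseudogene, by 0.26 on the log2 scale. In that fit Cplx2 fell by 0.46, Rasef fell by 0.36 and Rgs2 fell by 0.57. Cldn6 measured 120.1, 115.4, 117 and 139 CPM in S/S shAtf4, against 93.2, 67.5, 88.9 and 114.6 CPM in S/S shControl. Every S/S shAtf4 library lay above every S/S shControl library by a narrow margin, and without S/S shControl library 4 it was the only gene of the 16 to pass (log2 fold change 0.61, adjusted p = 0.0393, edgeR). Ddx3y, a Y-linked gene, measured 1.14, 0.799, 0.640 and 1.29 CPM in S/S shAtf4, against 48.1, 53.8, 45.5 and 47.7 CPM in S/S shControl. The shRNA groups therefore also differed in Y-linked RNA, whose part in these values was not tested. For the 61 genes only levels are given in this comparison, since they were chosen for near absence in S/S shControl.

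Eif2s1, which encodes eIF2α, averaged 215 ± 6.22 CPM in S/S siControl and 189.8 ± 53.2 CPM in S/S shControl, and Atf4 518 ± 35.2 CPM in S/S siControl and 686 ± 180 CPM in S/S shControl (SD, n = 4 each). Chchd10 averaged 42.4 ± 3.69 CPM in S/S siControl and 32.2 ± 13.3 CPM in S/S shControl. Each of the 3 overlapped between the control groups. Near the limits, the lowest levels in S/S siControl were 10.3 CPM for Foxo6, 10.3 CPM for Ppp2r2b and 10.52 CPM for Anks4b just inside, and 9.82 CPM for Xlr3b, 9.81 CPM for Rcan2 and 9.43 CPM for Nlrc4 just outside. The highest levels in S/S shControl were 0.457 CPM for Mme, 0.437 CPM for Ugt2b34 and 0.409 CPM for Pklr just inside, and 0.536 CPM for Sgk3, 0.550 CPM for Slc9a7 and 0.563 CPM for Gc, the vitamin D binding protein of plasma, just outside. For the 16 genes, the lowest levels in S/S shControl were 10.2 CPM for Mb21d2, 10.3 CPM for Rgs2 and 10.3 CPM for Nav3 inside, and 9.80 CPM for Gm4786, 9.80 CPM for Syk and 9.79 CPM for Gm10039 outside. Their highest levels in S/S siControl were 0.498 CPM for Pdcd5-ps, 0.490 CPM for Gm5559 and 0.490 CPM for Gm12989 inside, and 0.537 CPM for Gm6493, 0.616 CPM for Macc1 and 0.660 CPM for Rpl7-ps9 outside.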

How the data were processed

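Raw counts per gene, as whole numbers, were deposited by the authors in a table of 8 shRNA libraries and a table of 16 siRNA libraries. Per the labels' protocols, RNA was taken with Trizol and libraries followed the TruSeq Stranded Total RNA protocol, while the molecule is labelled polyA RNA. Per the submitters' processing notes the authors used build mm10 and DESeq2 1.24.0. How reads were aligned and counted, and on which strand, is not given in the sources used here. Of 38937 and 39310 symbols, 36720 were shared, and all matched the RefSeq table of GRCm38.p6.

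CPM are counts divided by the library's total over shared symbols, times 1e6. Limits of 10 and 0.5 CPM defined the genes. Regulators were compared on log2(CPM + 0.5). Tests used edgeR 4.0.16 in R 4.3.3 (filterByExpr, TMM, robust quasi-likelihood, Benjamini-Hochberg adjustment over all genes, threshold 0.05), with 14697 genes in the shRNA fit and 18138 in the siRNA fit. DESeq2 1.42.0, RLE scaling, no filter, a replicate block and leaving out libraries were alternatives. The fits were tested on simulated data. Labels do not say that libraries are separate cultures, so p-values measure the spread between these samples. Deviations of same-numbered shRNA libraries correlated at 0.45, 0.40, 0.24 and 0.79, so these numbers were taken as pairs in the fit with a block. The main fits have no block and ignore this pairing, and the block is given where it changed a count.

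Members and lists were chosen with earlier results of these data known. Named genes were Nkx2-1 and Cdkn2a, the 15 members of each direction with the highest lowest level (without pseudogenes and predicted genes), members on a gene list, the 6 regulators of each direction with the largest difference, genes nearest the limits, the 5 largest rises and 5 largest falls of each test, and Atf4, Chchd10 and Eif2s1. Roles were chosen after values were seen. Some of the genes met by these rules are not reported here.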

Additional observations from a re-analysis of the deposited data

Results flagged for a closer look

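In each of 91 groups of 4 libraries examined, 1 library was set against the other 3, and 10 stood apart by Dixon's criterion, which chance meets in about 1 in 20 groups. Krt23 was at 51.8 CPM in S/S siControl library 2, where the others held 40.3 to 41.0 CPM. Adora1, an adenosine receptor gene, was at 13.2 CPM in the same library, where the others held 15.1 to 15.3 CPM.

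S/S shControl library 4 stood apart for 3 of the 16 genes. Nav3 was at 19.4 CPM there and 10.3 to 11.1 CPM in the others, Gm12989 at 16.1 CPM and 10.6 to 11.5 CPM in the others, and Gm12751 at 35.7 CPM and 20.4 to 21.9 CPM in the others. Cdkn2a was at 0.775 CPM in S/S shControl library 1 and 0.0571 to 0.0938 CPM in the others.

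A/A siControl library 1 stood apart for 4 genes that were low in A/A and high in S/S cells. Hs6st2 was at 2.16 CPM there and 0 to 0.280 CPM in the others, and Prl at 3.83 CPM and 0.206 to 0.560 CPM in the others. Pdk4 was at 1.503 CPM there and 0.0652 to 0.09995 CPM in the others, and Apoc1 at 1.87 CPM and 0.329 to 0.391 CPM in the others. The cause was not tested.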

How the results depend on the processing

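The count of genes present in S/S siControl alone was 61 as given, 25 with limits of 20 and 0.25 CPM, 161 with limits of 5 and 1 CPM, and 61 to 68 when 1 library was left out, the highest without S/S shControl library 1. The count for S/S shControl alone was 16 as given, 1 with the stricter and 113 with the looser limits, and 16 to 23 when 1 library was left out, the highest without S/S shControl library 4. TMM kept all 61 and 12 of the 16. Tests within the siRNA table called 61, 57 and 39 of the 61 genes, and 61, 57 and 35 with a replicate block, in A/A siControl against S/S siControl, A/A siChchd10 against S/S siChchd10 and S/S siChchd10 against S/S siControl. The siRNA library numbers correlated between -0.09 and 0.16, so they share only a number. Leaving out 1 library gave ranges of 61 to 61, 55 to 57 and 32 to 42. In S/S shAtf4 against S/S shControl, 0 of the 16 passed as given, 5 with the replicate block and 0 to 1 when 1 library was left out. No share over all genes was taken for fits with the block or with a library left out. Cdkn2a in S/S siChchd10 against S/S siControl, which did not pass at -0.01 on the log2 scale, ranged from -0.046 to 0.031 when 1 library was left out. It changed sign to 0.0021 without S/S siControl replicate 1, 0.031 without S/S siControl replicate 4 and 0.022 without S/S siChchd10 replicate 2, and the cause was not tested. Depth limits the near-absent levels, and the shallowest control library held 17.5 units of 1e6 counts. The genes followed one by one were the 5 largest rises and 5 largest falls of each siRNA test, with Nkx2-1 and Cdkn2a. For these, 534 values with 1 library left out and 129 under other settings kept their direction and their side of the threshold. Another 7 and 2 values, all for Prl, no longer passed. Over all 61 genes, calls that ended without a single library numbered 7 in S/S siChchd10 against S/S siControl and 3 in A/A siChchd10 against S/S siChchd10.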
